A study of Mus musculus with 6 samples.

Results

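Glycolysis splits glucose into pyruvate in the cytosol, and the genes examined here are those that encode its enzymes, the carriers that bring glucose in and take lactate out, and the switch that decides whether pyruvate enters the mitochondrion. The set held 34 genes chosen by symbol, with earlier results of these data known. They ran from the glucose transporters Slc2a1 and Slc2a3 through the enzymes and their regulators. The lactate transporters Slc16a1 and Slc16a3 and the pyruvate dehydrogenase kinases were also included. All 34 were among the 22905 genes of the count table, and all 34 passed the low-count filter that left 14439 genes for testing. The RNA came from primary hepatic stellate cells, liver pericytes that store vitamin A, isolated from mice of the genotype BucheKI/KI-Hep given CCl4, which is carbon tetrachloride and injures the liver. The 3 libraries labelled PBS and the 3 labelled DOX share that genotype and the CCl4 treatment, and the series describes hepatocytes that over-express butyrylcholinesterase. The labels give neither age, sex, time of treatment nor what DOX stands for. All titles carry a tag, S2W, that is not spelled out. The labels also do not say whether the libraries of a group came from separate animals, so the p-values measure the spread between libraries. Because every animal carried the introduced gene, DOX itself and the gene cannot be told apart as sources of a difference.

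Cells take up glucose by facilitated transport, trap it as a phosphate through hexokinase, and commit it to breakdown at phosphofructokinase, which is driven by a regulatory fructose bisphosphate that the PFKFB enzymes make. Pyruvate kinase makes the pyruvate. Lactate dehydrogenase then turns pyruvate into lactate, which leaves through monocarboxylate transporters, unless pyruvate dehydrogenase feeds it into the citric acid cycle. The PDK kinases switch pyruvate dehydrogenase off. Many of these genes are textbook targets of hypoxia-inducible factor (HIF), and both activated stellate cells and stimulated macrophages are known for high glycolytic flux.

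The transcripts of the pathway were higher in the DOX libraries at many of its steps, with the widest difference at its exit. Of the 34 genes, 10 rose and 0 fell at an edgeR adjusted p of 0.05, where 4.38% of all tested genes rose and 2.04% fell (6.41% in either direction). The 10 were Slc16a3, which encodes a lactate exporter, Pdk1, Tpi1, Aldoc, Pfkl, Ldha, Eno1, Gapdh, Pgam1 and Gpi1. Their fold changes ran from 1.44 for Gpi1 to 28.9 for Slc16a3. At an unadjusted edgeR p of 0.05, 18 genes were higher and 1, Eno2, was lower (background 15.9% and 12.7%, and 28.7% in either direction). DESeq2 called 17 higher and 1 lower (background 11.6% and 6.82%), and limma-voom 10 and 0 (background 4.02% and 1.95%). DESeq2 added Slc2a1, Hk2, Pfkfb3, Pgk1, Pkm, Ldhb and Pdk3 to the genes called higher.

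In all, 28 of the 34 log2 fold changes were above 0, against 48.6% of all tested genes, and the median was 0.56 against -0.01 for all tested genes. The 3 DOX values lay above the 3 PBS values for 16 of the genes (16.9% of all tested genes), and below them for 1, Eno2 (17.7% of all tested genes). Summed over the 34 genes, levels in CPM (a gene's share of the library's counts, scaled by TMM factors, for comparing 1 gene between libraries) came to 4573, 4215 and 4215 in PBS and 8814, 7121 and 5494 in DOX, in the order of replicates 1, 2 and 3 as throughout. The groups did not overlap, and DOX replicate 3 lay nearest to PBS. The number of calls depended on single libraries. Without PBS replicate 2 or PBS replicate 3 edgeR called 0 of the 34 higher, with 17 and 18 at an unadjusted p of 0.05 and smallest adjusted p of 0.0694 and 0.0792. In those 2 fits it called 0 genes of the whole table, with 3294 and 3092 at an unadjusted p of 0.05. It called 5 when PBS replicate 1 was left out, 4 for DOX replicate 1 and 5 for DOX replicate 2. Leaving out DOX replicate 3 gave 17 higher and 0 lower (background 4.91% and 2.5%). Slc16a3, Pdk1, Tpi1 and Ldha were called in 4 of the 6 fits that left out a library. Aldoc was called in 1 of them (without DOX replicate 2), as were Pfkl, Eno1, Gapdh, Pgam1 and Gpi1 (without DOX replicate 3). All 10 kept a positive log2 fold change in all 6. With library totals in place of TMM factors the median log2 fold change of all genes shifted by -0.13. The median of the 34 was then 0.43 against -0.14 for all genes, 11 of the 34 were called higher and 0 lower (background 4.23% and 5.06%), and the share of higher among all calls went from 68.3% to 45.6%.

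**Figure D1:**
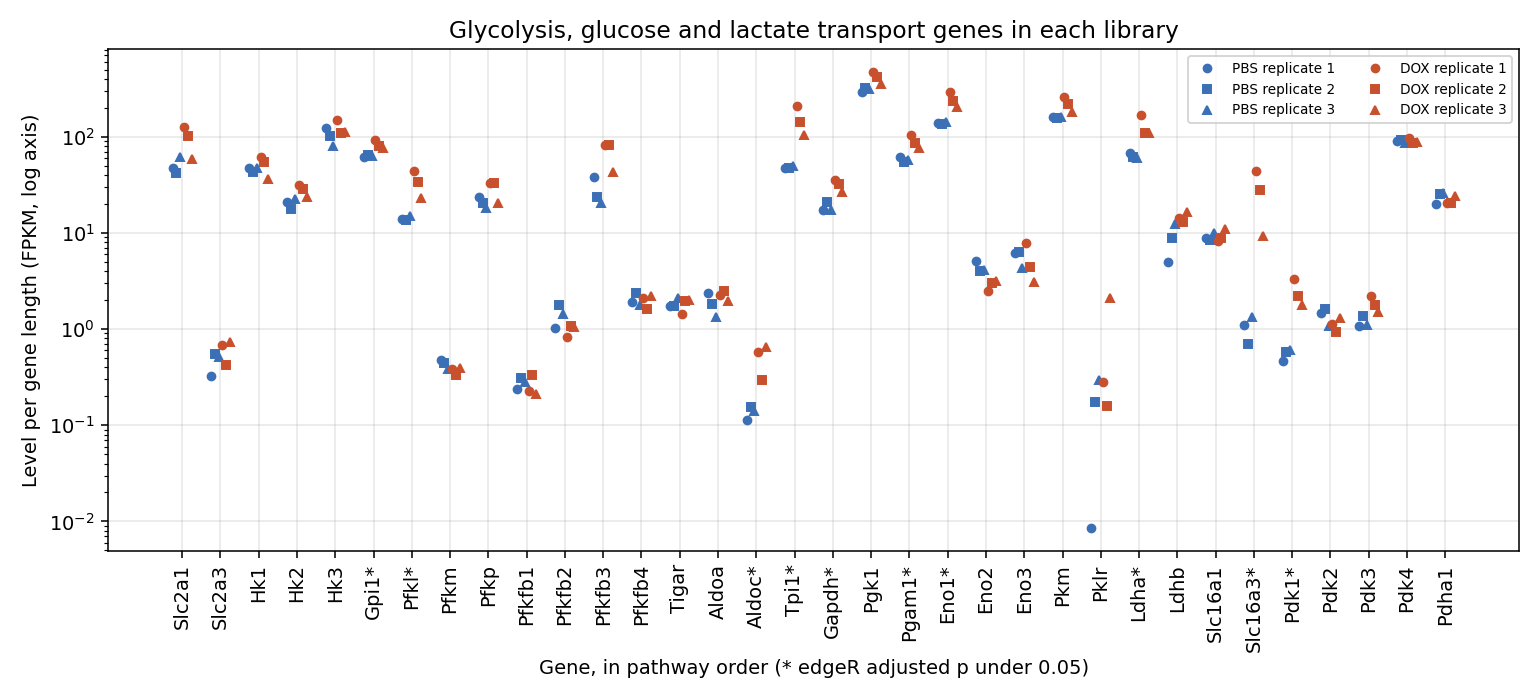
Level per gene length (FPKM, log axis) of the 34 genes in pathway order, in 3 PBS libraries (blue) and 3 DOX libraries (orange), with 1 point per library. An asterisk marks the 10 genes past an edgeR adjusted p of 0.05. Slc16a3 shows the widest gap, from 0.699 to 1.34 FPKM in PBS to 9.34 to 44.1 FPKM in DOX.

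Each library held between 36220282 and 37707364 counts, so that 3 reads, the limit a count of 0 allows for counting error, came to between 0.0758 and 0.0878 CPM. Bche, the gene the series describes as over-expressed, was counted 8, 26 and 14 times in PBS, against 1225, 582 and 3639 times in DOX. Its order among the DOX libraries was not that of the glycolytic genes: Bche was highest in DOX replicate 3, while 9 of the 10 called glycolytic genes peaked in DOX replicate 1 and 9 had their DOX minimum in replicate 3. The summed hepatocyte markers described below had the order of Bche, at 1101, 437 and 3824 CPM in DOX. The part of hepatocyte RNA in the Bche counts was not tested. Among all 632 genes called higher, 78.3% peaked in DOX replicate 1 and 59.7% had their DOX minimum in replicate 3.

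The libraries held transcripts of several liver cell types, whose most counted markers are named by CPM, not per length. Stellate cell markers were present, the most counted being Dcn and Col3a1, with a summed level of 914 to 2122 CPM in PBS and 1075 to 1698 CPM in DOX. The marker Gfap was at 0 in some libraries. Of 17 tested stellate markers edgeR called 0 (6.41% of all tested genes), with 0 at an unadjusted p of 0.05 (28.7%). DESeq2 and limma-voom also called 0 stellate markers. Macrophage markers (most counted: Mpeg1 and Lyz2) summed to 4873, 7084 and 4691 CPM in PBS against 15684, 8616 and 9797 CPM in DOX, and all 16 were higher in DOX in value. Of these, edgeR called 3, DESeq2 11 and limma-voom 5 (4.38%, 11.6% and 4.02% of all tested genes were called higher). For 13 the unadjusted edgeR p was under 0.05 (15.9% of all tested genes in that direction). For 13 the DOX values lay above the PBS values without overlap (16.9% of all tested genes). Endothelial markers (most counted: Cdh5 and Pecam1) summed to 6919 to 8386 CPM in PBS and 5834 to 7169 CPM in DOX. Of 15, edgeR called 0 higher and 2 lower, DESeq2 1 and 6, and limma-voom 0 and 3. Of all tested genes, 2.04%, 6.82% and 1.95% were called lower in the same order. In value 12 were lower and 3 higher, without overlap for 8 lower (17.7% of all tested genes) and 1 higher (16.9%). Hepatocyte markers (most counted: Alb and Trf) summed to 269.7 to 543 CPM in PBS and to 1101, 437 and 3824 CPM in DOX. All 15 were higher in DOX in value, with a median log2 fold change of 2.60. None of those 15 was called by edgeR or limma-voom. At an unadjusted edgeR p under 0.05, 14 were higher (15.9% of all tested genes), and DESeq2 called 8 higher (11.6%). For 3 the DOX values lay above the PBS values without overlap (16.9%).

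T and NK cell and neutrophil markers were scarcer, and their sums were also higher in DOX. Counts called higher below are those of edgeR, which called 4.38% of all tested genes higher. T and NK cell markers (most counted: Gzmb and Cd4) summed to 3.89 to 15 CPM in PBS and 54.6 to 133 CPM in DOX (5 of 11 called higher). Neutrophil markers (most counted: Csf3r and S100a8) summed to 27.7 to 59.9 CPM and 117 to 156 CPM (4 of 7 called higher), with Ly6g, Mpo, Elane, Cxcr2 and Retnlg at 0 in some libraries. Dendritic cell markers (most counted: Itgax and Zbtb46) summed to 76.6 to 104 CPM and 111 to 130.02 CPM (3 of 8 called higher). Cholangiocyte markers (most counted: Spp1 and Krt19) summed to 299 to 655 CPM and 511 to 645 CPM (1 of 6 called higher). B cell markers (most counted: Cd79b and Pax5) summed to 1.67 to 2.58 CPM and 2.53 to 5.98 CPM (0 of 4 called by edgeR, 1 at an unadjusted p of 0.05, 0 by DESeq2 and limma-voom). Erythroid markers (most counted: Alas2 and Hbb-bs) summed to 0.105 to 0.253 CPM and 0.394 to 1.88 CPM, too low to be tested. The part of these cell types in the glycolytic values was not tested. In RNA of whole samples, more cells of a type and more RNA per cell cannot be told apart.

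Transcripts of the 2 glucose transporters were almost wholly those of Slc2a1, the carrier of most dividing and activated cells. It held 99.1% ± 0.328 (SD, n = 3) of their summed FPKM, which divides counts by gene length and library total, in PBS and 99.3% ± 0.450 in DOX. Slc2a1 was at 124, 106 and 156 CPM in PBS and at 369, 292 and 154 CPM in DOX. Only DOX replicates 1 and 2 stood above PBS, and DOX replicate 3 fell inside the PBS range. Its log2 fold change of 1.08 (SE 0.31) did not pass (edgeR adjusted p = 0.0804, DESeq2 0.00733), and with DOX replicate 3 left out it was 1.36 (edgeR adjusted p = 0.0231). Slc2a3, the high-affinity neuronal and leukocyte carrier, was between 1.91 and 4.39 CPM in all 6 libraries.

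Hexokinase, which traps glucose as glucose phosphate, was represented by 3 genes, none of which passed the edgeR test. Hk3, the hexokinase typical of myeloid cells, was the most abundant, with 60.1% ± 5.91 of summed hexokinase FPKM in PBS and 61.3% ± 4.24 in DOX. It was at 419, 330.4 and 262 CPM in PBS and 567, 402 and 387 CPM in DOX, and the groups overlapped (log2 fold change 0.42 with SE 0.22, adjusted p = 0.245 by edgeR). Hk2, the inducible isozyme, was at 122, 101 and 129 CPM in PBS and 204, 182 and 141 CPM in DOX. All 3 DOX values of Hk2 were above all 3 PBS values, with a log2 fold change of 0.58 (SE 0.16) and an edgeR adjusted p of 0.0718 (DESeq2 0.0159, and edgeR 0.0381 without DOX replicate 3). Hk1, the isozyme of most tissues, ranged over 221 to 247 CPM in PBS and 197 to 357 CPM in DOX. Gpi1, which turns glucose phosphate into fructose phosphate, was at 174, 175 and 172 CPM in PBS and rose to 289, 243 and 219 CPM in DOX. That 1.44-fold difference (log2 fold change 0.53 with SE 0.11, adjusted p = 0.0454 by edgeR) was the smallest of the 10 that passed.

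At the commitment step the liver-type phosphofructokinase rose and the make-up of the enzyme shifted in value. Pfkl was at 55.5, 52.3 and 58.3 CPM in PBS and rose to 193, 147 and 94.1 CPM in DOX (2.61-fold, log2 fold change 1.38 with SE 0.24, adjusted p = 0.0296 by edgeR). Pfkp, the platelet-type isozyme and the most abundant in PBS, was at 103, 86.2 and 77.3 CPM in PBS and 159, 157 and 91.1 CPM in DOX, where DOX replicate 3 overlapped with PBS (log2 fold change 0.61 with SE 0.22, adjusted p = 0.131 by edgeR). Pfkp thus held 62.0%, 59.2% and 54.1% of summed phosphofructokinase FPKM in PBS and 42.6%, 49.0% and 46.4% in DOX, and Pfkl 40.3% ± 4.11 in PBS and 53.4% ± 3.25 in DOX. The Pfkp shares did not overlap. The exact two-sided permutation p of 0.1 is the smallest that 3 against 3 libraries can give, and it was 0.167 after adjustment over the 10 shares tested. Pfkm, the muscle isozyme, stayed between 1.18 and 1.56 CPM.

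The PFKFB enzymes make and remove the activator of phosphofructokinase, and Pfkfb3, whose product mainly makes it, held most of the family's transcripts. Pfkfb3 was at 241, 143 and 124 CPM in PBS and 571, 559.6 and 274 CPM in DOX. The groups were apart, with DOX replicate 3 and PBS replicate 1 the closest, and the log2 fold change of 1.47 (SE 0.35) had an edgeR adjusted p of 0.0546 (DESeq2 0.000495, and edgeR 0.0298 without DOX replicate 3). Its share of family FPKM was 87.2% ± 4.45 in PBS and 95.1% ± 2.21 in DOX (exact permutation p = 0.1, 0.167 adjusted). The other 3 members had low levels and overlapping groups: Pfkfb1 between 0.655 and 1.10 CPM, Pfkfb2 between 8.69 and 16.6 CPM and Pfkfb4 between 8.31 and 11.3 CPM. Tigar, a bisphosphatase that opposes them, was between 10.2 and 13.3 CPM in all 6 libraries (log2 fold change 0.07 with SE 0.16, adjusted p = 0.802 by edgeR).

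Where fructose bisphosphate is cleaved into triose phosphates, Tpi1 rose and aldolase transcripts were few. Tpi1, which interconverts the triose phosphates, was at 67.6, 65.6 and 68.9 CPM in PBS and rose to 332, 224 and 151 CPM in DOX (3.50-fold, log2 fold change 1.81 with SE 0.26, adjusted p = 0.0241 by edgeR). The lowest DOX library was above every PBS library, and the PBS values lay close together. Aldoa, the aldolase of most tissues, was listed at only 1.35 to 2.47 FPKM in any library, although the enzymes before and after it were far higher per length (Gpi1 at 61.7 to 92.3 FPKM and Tpi1 at 47.0 to 208 FPKM). Its log2 fold change was 0.40 (SE 0.27, edgeR adjusted p = 0.376). Aldoc, the brain-type aldolase, was lower still, read 12, 16 and 15 times in PBS and 61, 32 and 68 times in DOX. On these few reads it rose 4.04-fold (log2 fold change 2.02 with SE 0.39, adjusted p = 0.0353 by edgeR), and the Aldoa share of aldolase FPKM was 92.8% ± 2.43 in PBS and 81.4% ± 7.34 in DOX (exact permutation p = 0.1, 0.167 adjusted).

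In the payoff steps, which recover ATP and NADH, Gapdh, Pgam1 and Eno1 rose, and Pgk1 and Pkm did not pass the edgeR test. Gapdh, which makes the NADH of the pathway, was at 30.4, 35.6 and 28.9 CPM in PBS and rose to 68.3, 61.4 and 47.5 CPM in DOX (1.87-fold, log2 fold change 0.90 with SE 0.15, adjusted p = 0.0291 by edgeR). Pgk1, the kinase that makes ATP next, was at 528, 558 and 540.1 CPM in PBS and 927, 808 and 638 CPM in DOX. Its groups were apart, but its log2 fold change of 0.55 (SE 0.15) had an edgeR adjusted p of 0.0713 (DESeq2 0.0082, and edgeR 0.0287 without DOX replicate 3). Pgam1, the mutase, rose from 111, 94.4 and 100.2 CPM to 208, 167 and 138 CPM (1.68-fold, log2 fold change 0.75 with SE 0.16, adjusted p = 0.0415 by edgeR).

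Enolase was carried by Eno1, the isozyme of most tissues. Eno1 rose from 269.8, 257 and 268 CPM in PBS to 639, 504 and 403 CPM in DOX (1.94-fold, log2 fold change 0.96 with SE 0.17, adjusted p = 0.0296 by edgeR). Eno2, the neuronal isozyme, went the other way in value, at 16.0, 12.2 and 12.7 CPM in PBS and 8.60, 10.2 and 10.2 CPM in DOX, without overlap. Its log2 fold change of -0.49 (SE 0.16) had an edgeR adjusted p of 0.101 and a DESeq2 adjusted p of 0.0476. Eno3, the muscle isozyme, ranged over 22.3 to 33.3 CPM in PBS and 16.6 to 46.1 CPM in DOX. The Eno1 share of enolase FPKM was 93.2% ± 1.02 in PBS and 96.9% ± 0.213 in DOX (exact permutation p = 0.1, 0.167 adjusted).

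Pyruvate kinase was nearly all Pkm, the isozyme gene of muscle and proliferating cells, at 99.9% ± 0.0895 of summed FPKM in PBS and 99.6% ± 0.610 in DOX. Pkm was the most counted gene of the set, with 1209, 1143 and 1175 CPM in PBS and 2135, 1771 and 1394 CPM in DOX. The groups were apart, and the log2 fold change of 0.59 (SE 0.17) had an edgeR adjusted p of 0.0789 (DESeq2 0.00946, and edgeR 0.0358 without DOX replicate 3). Its splice forms are not separated in a table by gene. Pklr, the liver and red cell isozyme, was at 0.0265, 0.523 and 0.884 CPM in PBS and 0.966, 0.535 and 6.63 CPM in DOX (edgeR adjusted p = 0.218). Its highest library, DOX replicate 3, was also the library with the highest hepatocyte marker sum (3824 CPM), and the part of hepatocyte RNA in it was not tested.

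Lactate formation and export held the highest fold change of the set. Ldha, the lactate-forming isozyme gene, rose from 354, 309 and 305 CPM in PBS to 985, 624 and 579 CPM in DOX (2.26-fold, log2 fold change 1.18 with SE 0.21, adjusted p = 0.0311 by edgeR). Ldhb, the heart-type isozyme, was at 6.31, 10.9 and 15.3 CPM in PBS and 20.4, 18.0 and 21.1 CPM in DOX, without overlap (log2 fold change 0.88 with SE 0.30, adjusted p = 0.110 by edgeR, DESeq2 adjusted p = 0.0317). Because both were higher in value, the Ldha share moved little, from 87.9% ± 5.12 to 89.5% ± 2.60 (exact permutation p = 0.700).

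Slc16a3 encodes the low-affinity lactate exporter of highly glycolytic cells, and it lies on chromosome 11 from 120948484 to 120959000 (GRCm38.p6). It was at 3.95, 2.43 and 4.65 CPM in PBS and 175, 109 and 34.0 CPM in DOX. Even its lowest DOX library was far above the highest PBS library, although the DOX libraries differed widely among themselves. The rise was 28.9-fold (log2 fold change 4.85 with SE 0.63, adjusted p = 0.0215 by edgeR) and stayed between 4.28 and 5.27 on the log2 scale with each library left out in turn. The call was kept in 4 of those 6 fits, and lost without PBS replicate 2 or PBS replicate 3. Slc16a1, the widely expressed carrier that moves lactate both ways, was at 38.3, 35.7 and 42.3 CPM in PBS and 39.9, 41.2 and 47.8 CPM in DOX, with overlap (log2 fold change 0.15 with SE 0.11, adjusted p = 0.418 by edgeR). Per length, Slc16a3 thus went from 11.1%, 7.59% and 11.7% of the pair in PBS to 84.1%, 76.2% and 46.2% in DOX, a mean of 10.1% ± 2.22 against 68.9% ± 20.004. The shares did not overlap (exact permutation p = 0.1, the smallest possible, 0.167 adjusted).

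**Figure D2:**
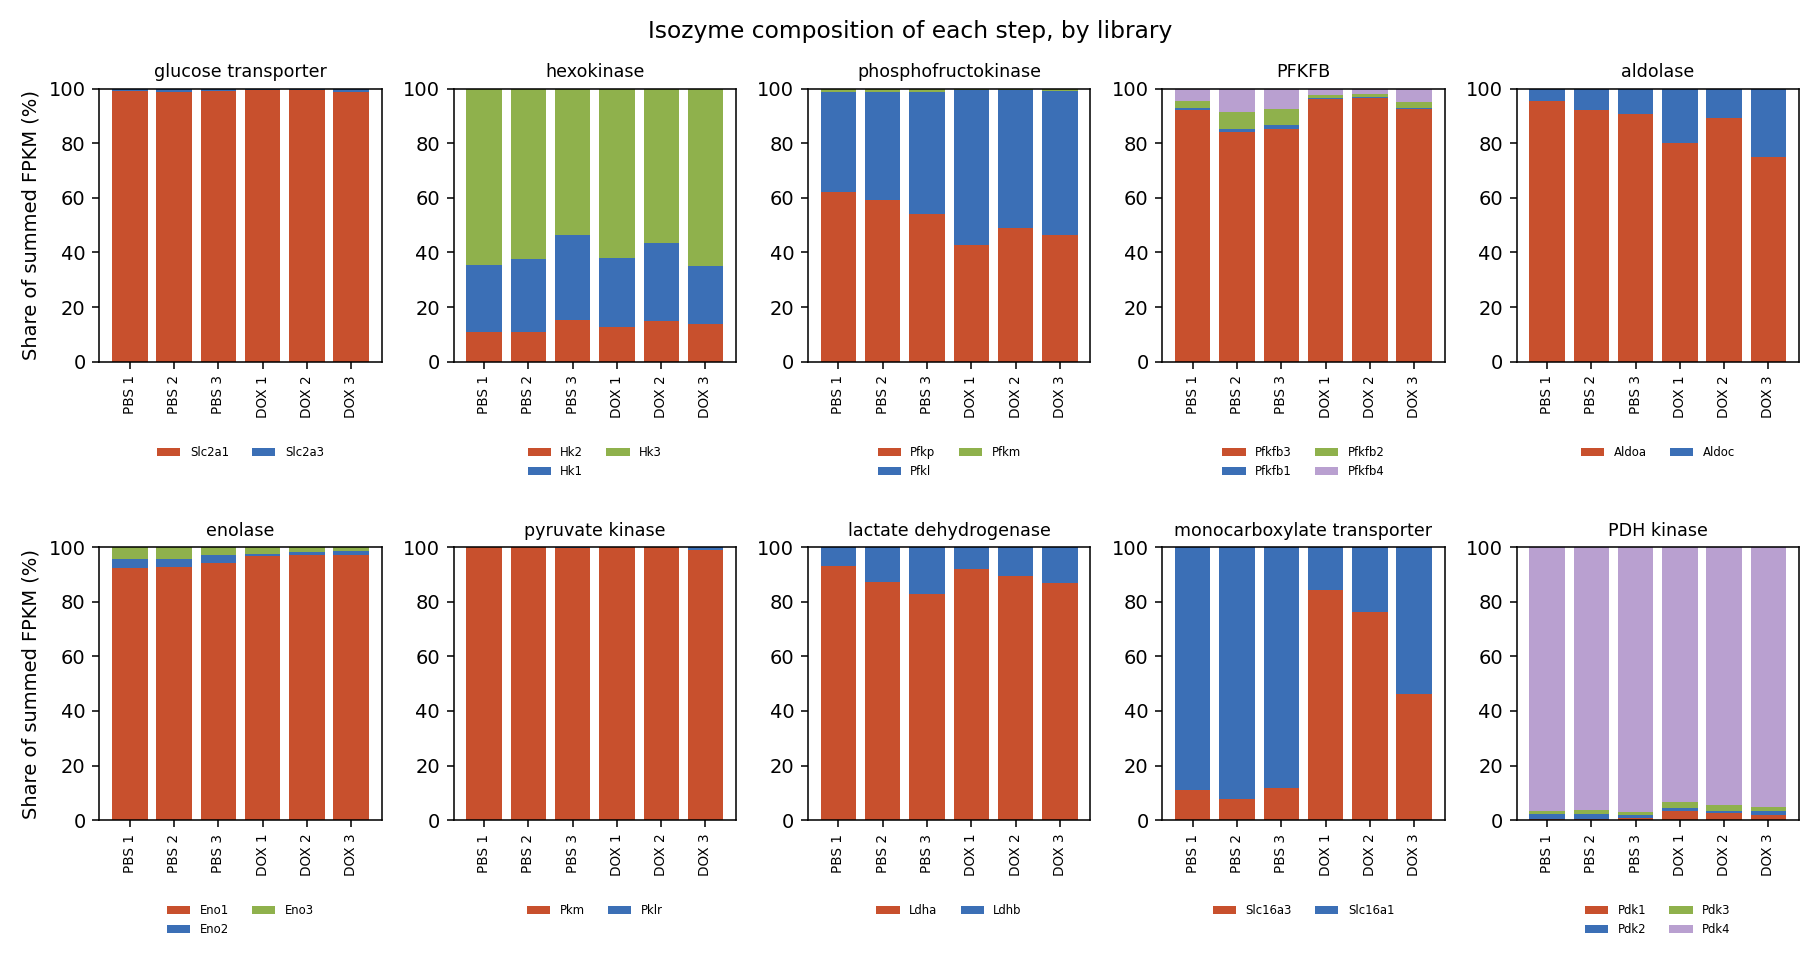
Share of summed FPKM (percent) that each isozyme or carrier held at 10 steps, with 1 stacked bar per library. The transporter panel shows Slc16a3 at 7.59% to 11.7% in PBS and 46.2% to 84.1% in DOX, the phosphofructokinase panel shows Pfkp from 54.1% to 62.0% in PBS and 42.6% to 49.0% in DOX, and pyruvate kinase and glucose transporter stay near a single gene in every library.

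At the mitochondrial gate, Pdk1 rose while the most abundant kinase differed little in value. Pdk1 encodes a pyruvate dehydrogenase kinase and lies on chromosome 2 from 71873215 to 71903858. It rose from 2.86, 3.45 and 3.61 CPM in PBS to 22.7, 14.8 and 11.1 CPM in DOX (4.88-fold, log2 fold change 2.29 with SE 0.28, adjusted p = 0.0206 by edgeR), the lowest adjusted p of the set. The groups were well apart, and the call was kept in 4 of 6 fits that each left out a library, being lost without PBS replicate 2 or PBS replicate 3. Pdk4, the kinase linked to fasting and fat oxidation, was at 304, 305 and 281 CPM in PBS and 360.2, 315 and 302 CPM in DOX (log2 fold change 0.13 with SE 0.10, adjusted p = 0.422 by edgeR). Per length Pdk4 remained the leading kinase, with 96.6% ± 0.282 of kinase FPKM in PBS and 94.4% ± 0.776 in DOX, against 0.597% ± 0.0922 and 2.54% ± 0.665 for Pdk1 (exact permutation p = 0.1 for Pdk1, 0.167 adjusted).

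Pdk3 was at 12.2, 14.8 and 11.9 CPM in PBS and 27.3, 21.7 and 17.2 CPM in DOX, without overlap (log2 fold change 0.77 with SE 0.19, adjusted p = 0.0578 by edgeR, 0.00457 by DESeq2), and Pdk2 stayed between 2.59 and 4.0 CPM. The kinases' substrate gene Pdha1 was at 56.5, 68.2 and 70.3 CPM in PBS and 63.1, 61.9 and 69.2 CPM in DOX (log2 fold change -0.01 with SE 0.11, adjusted p = 0.977 by edgeR). The groups of Pdha1 overlapped fully.

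Promoter sequence is shown for both lactate carriers, since Slc16a3 rose and Slc16a1 did not pass the test, and for Ldha and Pdk1, which rose with Slc16a3. The windows are the 250 bases before an annotated start in RefSeq (GRCm38.p6), 5′ to 3′ on the plus strand, on which all 4 genes lie. Capitals mark ACGTG or GCGTG, the core letters of the hypoxia response element, on either strand (CACGT or CACGC where the match is on the other strand). ACGTG also lies within the E-box CACGTG, a palindrome that therefore matches on both strands. The windows are chr11:120948817-120949066 for Slc16a3, chr3:104638414-104638663 for Slc16a1, chr7:46845554-46845803 for Ldha and chr2:71872974-71873223 for Pdk1.
Slc16a3: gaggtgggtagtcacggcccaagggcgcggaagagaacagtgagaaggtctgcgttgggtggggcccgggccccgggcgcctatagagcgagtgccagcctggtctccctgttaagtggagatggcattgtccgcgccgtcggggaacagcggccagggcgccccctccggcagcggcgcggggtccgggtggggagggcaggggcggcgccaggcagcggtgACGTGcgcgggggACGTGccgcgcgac
Slc16a1: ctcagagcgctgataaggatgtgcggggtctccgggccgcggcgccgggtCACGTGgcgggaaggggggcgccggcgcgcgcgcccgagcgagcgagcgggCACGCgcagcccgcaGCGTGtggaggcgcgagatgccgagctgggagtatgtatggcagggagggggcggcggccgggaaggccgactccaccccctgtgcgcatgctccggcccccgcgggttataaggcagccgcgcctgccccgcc
Ldha: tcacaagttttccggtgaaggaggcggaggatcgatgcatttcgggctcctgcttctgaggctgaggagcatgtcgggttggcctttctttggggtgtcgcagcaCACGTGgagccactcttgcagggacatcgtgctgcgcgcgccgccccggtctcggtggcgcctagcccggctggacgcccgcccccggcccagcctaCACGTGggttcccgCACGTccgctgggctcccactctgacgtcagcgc
Pdk1: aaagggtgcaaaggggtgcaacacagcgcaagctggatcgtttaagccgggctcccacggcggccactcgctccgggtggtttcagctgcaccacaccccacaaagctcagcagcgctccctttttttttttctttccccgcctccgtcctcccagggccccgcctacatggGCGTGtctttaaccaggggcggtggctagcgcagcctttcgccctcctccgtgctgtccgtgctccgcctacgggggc

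The Slc16a3 window held 2 ACGTG matches, at 27 and 14 bases before the start. Slc16a1, which differed little in value, held 1 E-box copy and 2 GCGTG matches. The Ldha window shown held 2 E-box copies and 1 further ACGTG match, and that of Pdk1 held 1 GCGTG match. Ldha and Pdk1 each have a second window, not shown. That of Ldha held 1 GCGTG and 0 ACGTG matches, and that of Pdk1 held 0 of either. Tpi1 and Gpi1, which also rose, held 0 of either. RefSeq windows were found for 33 of the 34 genes, with 53 windows in all, and none was found for Slc2a3. ACGTG was present in 19 of the 53 windows (35.8%), against 16.6% of all promoter windows and 20.9% of those of tested genes. For GCGTG the count was 26 of 53 (49.1%), against 28.2% and 42.2%. The E-box CACGTG was in 6 of 53 (11.3%), against 6.02% and 8.0%. By gene, 3 of the 10 that rose held ACGTG in a window (30.0%), and 12 of the other 23 did (52.2%), where 24.5% of tested genes did. GCGTG was held by 7 of the 10 (70.0%) and 14 of the other 23 (60.9%), where 47.8% of tested genes held it. A match is a description of sequence and was not tested as a binding site.

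Several members share long stretches of sequence with other genes, so their counts may depend on how reads that match in more than 1 place were treated, which is not given in the sources used here. Transcripts of 78 other genes matched Gapdh at 95% identity or more over at least 200 bases and together covered 88.0% of its transcript. The level of Gapdh, 17.2 to 35.4 FPKM, was well below that of Pgk1, the next enzyme, at 295 to 469 FPKM, and the part of shared reads in this was not tested. The same search covered 85.6% of Eno1, 76.8% of Ldhb, 68.8% of Pgk1, 65.5% of Pkm, 55.0% of Ldha, 50.2% of Gpi1, 43.1% of Pgam1, 25.6% of Pfkfb2, 24.5% of Pklr, 19.3% of Tpi1, 18.0% of Pfkp and 14.96% of Pdha1. How many reads of these genes could be placed elsewhere was not measured. No such copy was found for Slc16a3, Pdk1, Pfkl or Aldoc, nor for Aldoa. Exons of another gene overlapped 22.0% of the exonic bases of Pklr (Hcn3, opposite strand), 17.4% of Pfkfb2 (Gm29427, same strand), 16.1% of Pdha1 (Map3k15, opposite strand), 15.3% of Pkm (Gm49759, same strand), 11.5% of Gpi1 (Gm26762, opposite strand) and 10.2% of Pfkm (Gm26513, same strand), and reads from such stretches may belong to either gene.

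The branches around glycolysis were described with lists of their other genes. Glycogen metabolism had 3 of 10 tested genes higher and 0 lower by edgeR (4.38% and 2.04% of all tested genes), with a median log2 fold change of 0.22. DESeq2 called 3 higher and 0 lower (11.6% and 6.82%), as did limma-voom (4.02% and 1.95%). Pygl, which breaks down glycogen in liver, rose 3.42-fold, from a mean of 5.02 ± 0.883 CPM to 17.2 ± 5.70 CPM (adjusted p = 0.0272 by edgeR). Pgm1, which links glycogen to glucose phosphate, rose 2.92-fold, from a mean of 20.2 ± 1.37 CPM to 59.2 ± 19.0 CPM (adjusted p = 0.0247 by edgeR). Ugp2, which makes the sugar donor for glycogen synthesis, rose 1.49-fold (edgeR adjusted p = 0.0378), and Pgm2, the most counted of the list, had a log2 fold change of 0.19 (edgeR adjusted p = 0.469). Genes of glycogen breakdown and of its synthesis were both among those that rose. The calls of Pygl and Pgm1 were lost without PBS replicate 2, PBS replicate 3 or DOX replicate 1. Ugp2 kept its call in 1 of the 6 fits that left out a library, the one without DOX replicate 3.

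Other hexose and monocarboxylate transport had 9 tested genes. DESeq2 called 4 higher and 0 lower (11.6% and 6.82% of all tested genes), and limma-voom 1 and 0 (4.02% and 1.95%). By edgeR 1 was higher and 0 lower (4.38% and 2.04%). That gene was Slc2a6, a transporter of intracellular membranes, at 33.6, 40.2 and 25.1 CPM in PBS and 127, 109 and 72.2 CPM in DOX (3.13-fold, edgeR adjusted p = 0.0256, a call lost without PBS replicate 2, PBS replicate 3 or DOX replicate 1). Bsg, the chaperone that carries both lactate carriers to the membrane, was at 207 to 215 CPM in PBS and 250.2 to 286 CPM in DOX, without overlap (log2 fold change 0.34, edgeR adjusted p = 0.0622).

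The branches that lead elsewhere had 0 genes called by edgeR in either direction, where 6.41% of all tested genes were called (28.7% at an unadjusted p of 0.05). Lists this short can hold 0 calls at such a share. The pentose phosphate pathway had 8 tested genes (median 0.01), with Taldo1 at a log2 fold change of -0.16 and Pgd at 0.07. There 1 gene was higher at an unadjusted edgeR p of 0.05, and DESeq2 called 1 higher and limma-voom 0. Gluconeogenesis had 5 tested genes (median 0.02), with Pck2 at -0.53 and G6pc3 at -0.31. At an unadjusted edgeR p of 0.05, 1 was higher and 1 lower, and DESeq2 called 1 higher and limma-voom 0. Entry of pyruvate into mitochondria had 9 (2 at an unadjusted p of 0.05, both lower, DESeq2 1 lower, limma-voom 0), with a median of -0.07. The citric acid cycle had 18, with a median of 0.02, Sdha at 0.04 and Ogdh at -0.07. At an unadjusted edgeR p of 0.05, 2 of these were higher and 0 lower, and DESeq2 called 1 higher and limma-voom 0. Whether the difference between glycolysis and these branches exceeds the spread between libraries was not tested. Isozymes left out of the main set had 0 of 5 called by edgeR and a median of 1.81. At an unadjusted edgeR p of 0.05, 2 of them were higher and 1 lower, and DESeq2 called 1 higher and limma-voom 0. Adpgk, an ADP-dependent glucokinase, had a log2 fold change of -0.31.

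**Figure D3:**
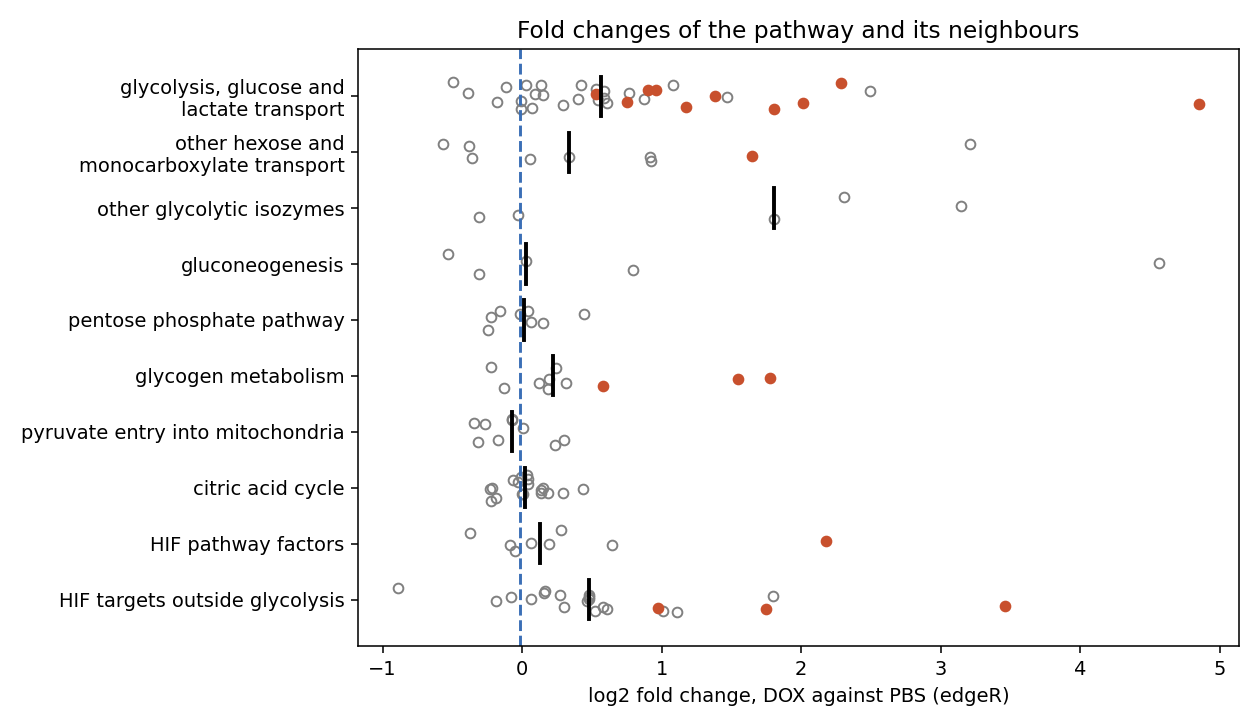
Log2 fold change (DOX against PBS, edgeR) of each tested gene, by list. Filled orange points passed an adjusted p of 0.05, the black bar is the list's median and the dashed line the median of all 14439 tested genes (-0.01). The main set has 10 filled points and a median of 0.56, and the citric acid cycle has 0 filled points and a median of 0.02.

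HIF targets outside glycolysis were read beside it, since they share that regulator with many members. Of 21 tested, edgeR called 3 higher and 0 lower (4.38% and 2.04% of all tested genes). DESeq2 called 8 and 1 (11.6% and 6.82%), and limma-voom 2 and 0 (4.02% and 1.95%). In value 18 were above 0 (48.6% of all tested genes), and the median log2 fold change was 0.48. Adm was the 1 that DESeq2 called lower, without overlap (log2 fold change -0.89, adjusted p = 0.00919 by DESeq2 and 0.0725 by edgeR). Bnip3, a mitophagy receptor, was at 6.89, 4.34 and 6.01 CPM in PBS and rose to 96.8, 69.1 and 24.3 CPM in DOX (11-fold, edgeR adjusted p = 0.0240). Its DOX libraries had the same order as those of Slc16a3, and its call was lost without PBS replicate 2, PBS replicate 3 or DOX replicate 1. Ak4, a mitochondrial adenylate kinase, rose 3.36-fold (edgeR adjusted p = 0.0334) and Hilpda, a lipid droplet protein gene, 1.96-fold (edgeR adjusted p = 0.0324). Both kept their call in 1 of the 6 fits that left out a library, the one without DOX replicate 3, and limma-voom did not call Ak4 (adjusted p = 0.0528). Plin2, a lipid droplet coat protein gene, had a log2 fold change of 0.61 and did not pass (edgeR adjusted p = 0.10).

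Among 8 tested factors of the HIF pathway, 1 rose by edgeR and 0 fell (4.38% and 2.04% of all tested genes). DESeq2 called 2 higher and 1 lower (11.6% and 6.82%), and limma-voom 1 and 0 (4.02% and 1.95%). The 1 that DESeq2 called lower was Epas1, at 66.4 to 83.0 CPM in PBS and 54.2 to 61.9 CPM in DOX. Its log2 fold change was -0.38 (adjusted p = 0.0348 by DESeq2 and 0.0794 by edgeR). Egln3, an oxygen-sensing hydroxylase gene that is itself a HIF target, rose 4.51-fold from 6.63, 7.17 and 7.48 CPM to 40.5, 37.7 and 17.9 CPM (edgeR adjusted p = 0.0240), a call lost without the same libraries as that of Bnip3. Hif1a was at 519, 581 and 625 CPM in PBS and 624, 808 and 541 CPM in DOX (log2 fold change 0.19, edgeR adjusted p = 0.481), and Arnt, its partner, had a log2 fold change of 0.06 (edgeR adjusted p = 0.676). HIF activity is set largely at the level of protein, which was not measured here.

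**Figure D4:**
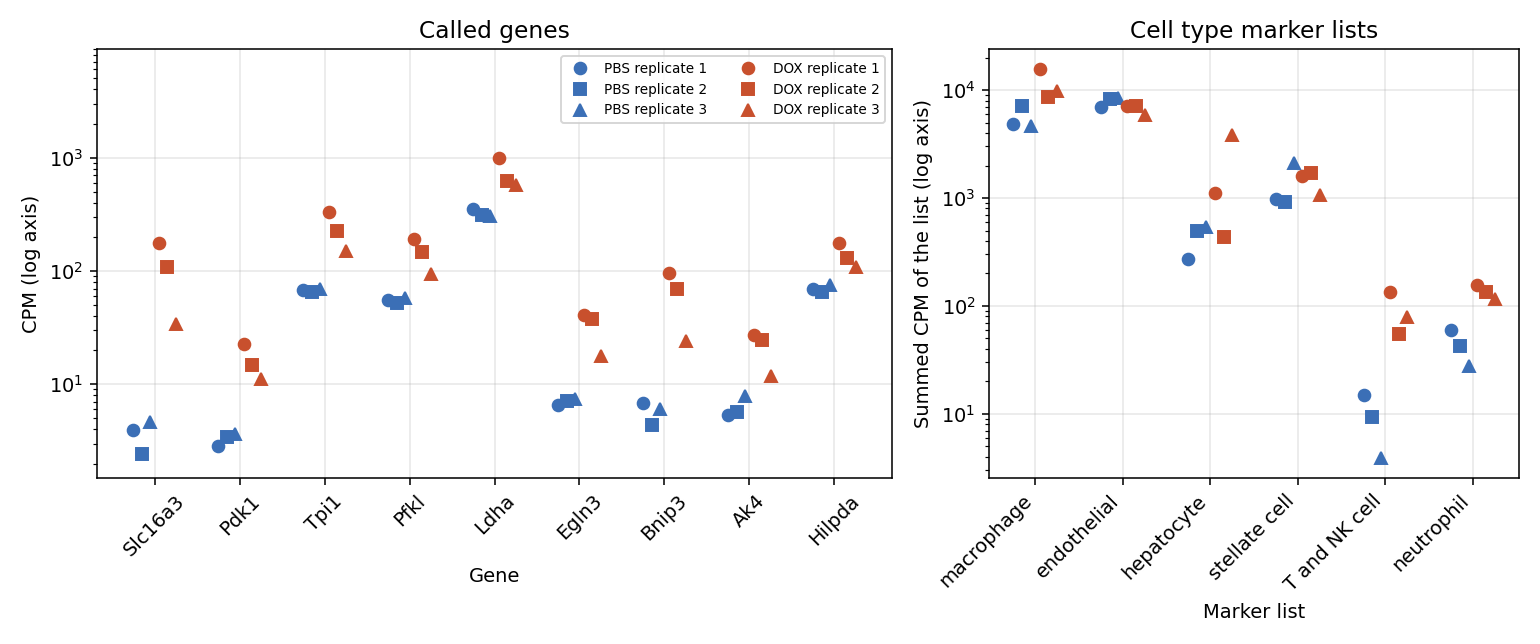
Left, CPM (log axis) of 5 of the 10 glycolytic genes that rose and of 4 HIF pathway or target genes that rose, in each library. Right, summed CPM (log axis) of 6 marker lists in the same libraries. All 9 genes shown share the order DOX replicate 1, 2, 3 from high to low, as do the neutrophil sums. Aldoc, a called gene that is not shown, does not. Of all 632 genes called higher, 78.3% peaked in DOX replicate 1 and 59.7% had their DOX minimum in replicate 3. The macrophage sum is lowest in DOX replicate 2 and the hepatocyte sum highest in DOX replicate 3.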

How the data were processed

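Per the labels' protocols, RNA-seq libraries were prepared with a SMARTER mRNA-Seq kit. The authors deposited raw read counts and FPKM values for 22905 gene symbols in 6 columns, with 0 unmatched columns. Each nonzero deposited FPKM equalled count per kilobase per library total (100% of values, relative tolerance 0.0001). Aligner, counter and use of strand: not given in the sources used here. The submitters' processing notes list GRCm38, mm10 and hg38 without saying what each was used for. Replicate pairs of a group differed by more than sampling noise (chi-square per degree of freedom 41.6 to 88.5).

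The main test was edgeR 4.0.16 (R 4.3.3, quasi-likelihood, two-sided) on the counts, with TMM factors, a group term alone and filterByExpr (minimum count 10, minimum total 15). Benjamini-Hochberg adjustment ran over all 14439 tested genes with a threshold of 0.05. The common biological coefficient of variation was 0.230. Each SE was derived from the F statistic, and values after ± are SD of 3 libraries. Levels of isozymes were compared by FPKM, and the most counted genes of the other lists were ranked by mean CPM. Isozyme shares were compared by exact permutation over libraries. Copies were sought among GENCODE M21 transcripts. Alternatives were RLE factors, library totals, other filters, DESeq2 1.42.0, limma 3.58.1 (voom, and log2 of FPKM plus 1 or 0.1 where FPKM reached 0.5 in 3 libraries), the replicate block and leaving out each library. The code was tested on simulated counts.

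The members and lists were chosen with earlier results of these data known. Values in every library are given for members past the threshold and the most abundant isozyme of each step, and for further members described. From other lists the text names up to 4 called genes per direction and the 2 with the highest mean CPM, and from marker lists those 2 alone; some genes that the rule takes are not reported here.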

Additional observations from a re-analysis of the deposited data

How the results depend on the processing

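The 10 glycolytic genes kept a positive log2 fold change in every setting that gave them a value. RLE factors gave 10 members called higher, library totals 11 (with Pfkfb3), no low-count filter 12 (with Pfkfb3 and Pdk3), a filter of 5 CPM 9 (Aldoc was not tested), limma-voom 10 and limma on log2(FPKM + 1) or log2(FPKM + 0.1) 8 each, without Gpi1 and Aldoc. DESeq2 called 2658 genes in place of 926, 17 members higher and 1 lower. With each library left out in turn, edgeR called between 0 and 1090 genes in all and between 0 and 17 members higher. The cause of these changes was not tested, beyond the smaller number of libraries. In the same fits the number called higher was 0 to 2 for other hexose and monocarboxylate transport, 0 to 1 for gluconeogenesis (1 also with library totals), 0 to 3 for glycogen metabolism, 0 to 2 for HIF factors and 0 to 8 for HIF targets. The difference in the Ldha share lay between -0.778 (without PBS replicate 3) and 4.32 percentage points, and in the Pkm share between -0.529 and 0.00807 (without DOX replicate 3).

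The replicate numbers were not shown to pair the libraries: same-numbered deviations from the group means correlated at 0.0949, -0.106 and 0.232, and DOX replicate 1 correlated best with PBS replicate 2. With the replicate number as a block, 781 genes were called and 9 members higher, of which 8 were among the 10 (Gpi1 and Aldoc left, Pfkfb3 joined).

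Log2 fold changes near 0 changed sign. With library totals, log2(FPKM + 1) and log2(FPKM + 0.1) in turn they were -0.0365, -0.0252 and -0.0370 for Pfkfb4, -0.0502, -0.0356 and -0.0549 for Tigar, -0.0600, -0.0599 and -0.0601 for Pgd, -0.120, -0.120 and -0.122 for Dld, -0.0809, -0.0814 and -0.0825 for Sdha and -0.0648, -0.0625 and -0.0654 for Arnt. Pfkfb1 was at -0.104 with library totals and Dld at -0.000567 with no filter. With RLE factors, a 5 CPM filter and DESeq2, Eno3 was at 0.00873, 0.00185 and 0.00910 and Pdha1 at 0.00466, 0.00286 and 0.00464. With each library left out the range was -0.216 to 0.179 for Pfkfb1, -0.00476 to 0.202 for Pfkfb4, -0.486 to 0.277 for Eno3, -0.10016 to 0.0518 for Pdha1, -0.000486 to 0.188 for Tigar, -0.00577 to 0.306 for Pgm2 and -0.0476 to 0.0615 for Dld. Aldoc rests on 12 to 68 reads per library, so depth limits its fold change.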
